A study of Homo sapiens with 4 samples.

Results

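The monocyte lineage transcription factors described here are SPI1, CEBPA, CEBPB, CEBPD, CEBPE, IRF8, IRF4, IRF5 and KLF4, a group of 9 genes. Of them 8 were among the 20654 gene names with an analysed probe, and IRF4 was not. They were measured in THP1 cells, a cell line from an acute monocytic leukemia that carries the fusion gene MLL-AF9, after siRNA against the fusion or after non-targeting siRNA. The knockdown group had 1 array for siRNA-A and 1 for siRNA-B, and the control group 1 array for each of 2 control siRNAs. In the titles of the samples the knockdown arrays are siRNA3, named siRNA-A here, and siRNA4, named siRNA-B here. Each array held RNA pooled from 5 experiments. All cells were transfected on days 0, 3 and 6 and harvested on day 8, in medium with 10% serum up to day 6 and 0.5% serum from then on. The 4 single-colour arrays sat on 1 slide, with siRNA-B in place 1, siRNA-A in place 2 and the controls in places 3 and 4, so the treatment and the place of an array cannot be told apart.

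A factor was followed through every probe that carries its gene name, is no control spot and has a quality weight above 0 on all 4 arrays. Each of the 9 genes had 1 probe, and 8 of the 9 passed. The call used limma with an unadjusted p under 0.005, and adjusted p are by Benjamini-Hochberg over all 26219 probes analysed. Values are log2 of the deposited intensity, which was not normalized between arrays. The number of arrays limits the precision, and a two-sided exact permutation test of 2 arrays against 2 could not give a p under 1/3.

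Monocytes arise from myeloid precursors under a small set of DNA-binding proteins. PU.1, the ETS factor encoded by SPI1, is needed for the whole myeloid lineage and acts together with the C/EBP proteins, which are leucine zipper factors. C/EBPalpha acts at the step from progenitors to committed myeloid cells, C/EBPbeta and C/EBPdelta in activated and maturing macrophages, and C/EBPepsilon in late granulocytes. IRF8 favours monocytes over granulocytes, IRF5 drives inflammatory cytokine genes in macrophages, IRF4 acts in lymphocytes and dendritic cells, and KLF4 promotes monocyte differentiation.

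As a check of the labels, the MLLT3 probes were examined first. MLLT3 encodes AF9, and both probes lie in its 3' part, which is in the fusion. The probe A_23_P216693 had log2 intensities of 6.82 with siRNA-A and 6.87 with siRNA-B against 7.59 and 7.61 with the control siRNAs. For A_24_P192627 the values were 6.44 and 6.55 against 7.02 and 7.24. The MLL probe in the fused 5' part, A_33_P3390570, had 10.55 and 10.64 against 10.95 and 11.08. HOXA9, a known target of MLL fusions, had 11.14 and 11.48 against 11.86 and 11.89 on A_23_P500998, and 9.27 and 9.55 against 9.71 and 9.70 on A_33_P3416231. In all 5 of these probes each knockdown array was below each control array, and 3 of the 5, both of MLLT3 and A_23_P500998, were called (log2 fold changes -0.76, -0.63 and -0.56, adjusted p = 0.0639, 0.182 and 0.294 in limma). Called probes of these genes numbered 1 without siRNA-A, 2 without siRNA-B, and 1 when the one or the other control array was left out. The background-subtracted signal gave 1, and quantile normalization, cyclic loess normalization, normexp and the removal of dim probes gave 4. The MLL probes outside the fused part, A_33_P3307307, A_33_P3390576 and A_24_P136402, had knockdown and control arrays overlapping and check nothing.

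None of the 8 factor probes was called in limma, 0 higher and 0 lower. At an unadjusted p under 0.05, 3 of 8 were higher and 0 lower, and adjusted p under 0.05 occurred in 0. The 3 became 0 when control siRNA-2 was left out, 1 when control siRNA-1 or siRNA-B was, and 1 with the background-subtracted signal, and 4 after normalization by quantiles or cyclic loess. Among the 26219 probes 1.32% were called, 0.584% higher and 0.732% lower, 3.15% were higher at an unadjusted p under 0.05, and 0.118% had an adjusted p under 0.05. In 4 of the 8 probes, those of CEBPB, CEBPD, IRF5 and KLF4, both knockdown arrays lay above both control arrays, and in 0 of 8 both lay below. Over all probes the groups were apart in 36.6%, with 15.2% higher and 21.4% lower after knockdown. With 3 arrays the groups separate more readily. The siRNA-A array alone was above both controls in 4 of 8 factor probes (25.7% of all probes) and below both in 3 (45.3%), and the siRNA-B array alone was above both in 7 (37.6%) and below both in 0 (33.2%). Against control siRNA-2 alone both knockdown arrays were higher in 4 (22.7%) and lower in 1 (43.2%), and against control siRNA-1 alone higher in 5 (33.5%) and lower in 0 (28.6%). The 4 of 8 is a count on a short list chosen with results of these arrays known.

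**Figure D1:**
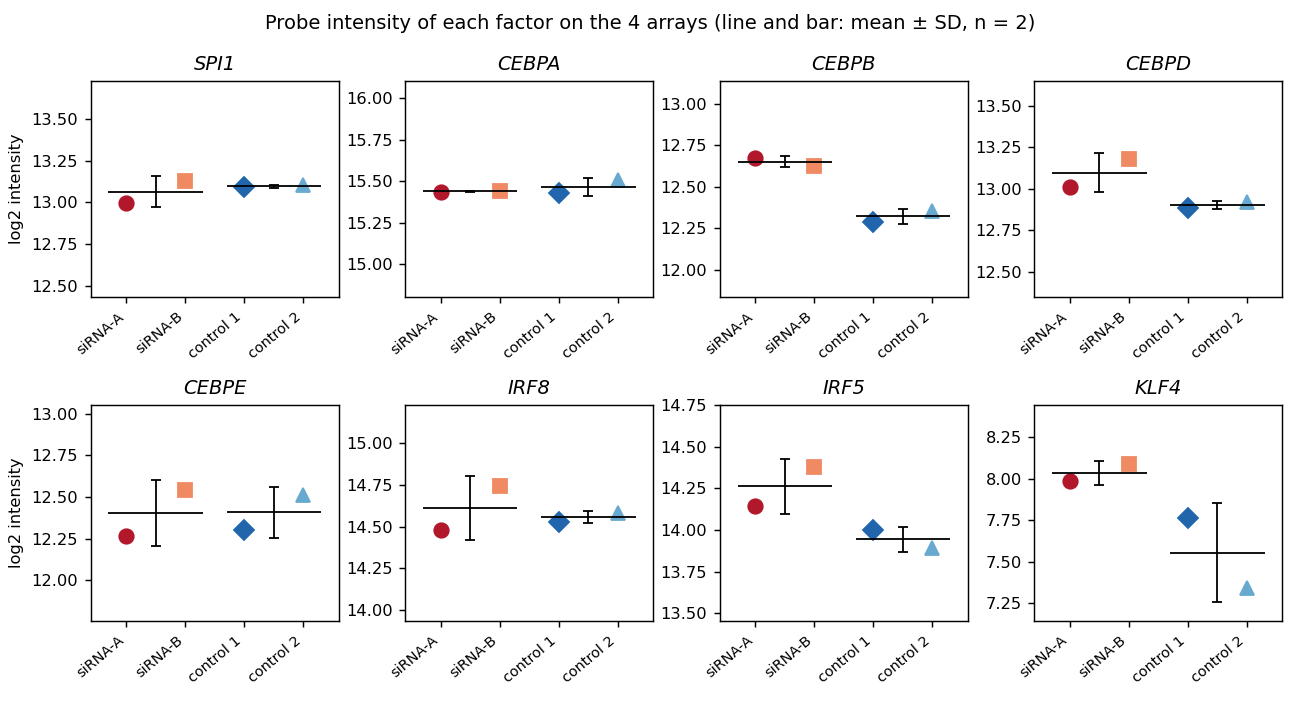
Log2 intensity of the probe of each factor on each of the 4 arrays, 1 panel per gene with an axis of equal length. Lines and bars are the mean and SD of the 2 arrays of a group. In CEBPB, CEBPD, IRF5 and KLF4 both knockdown arrays lie above both control arrays.

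SPI1 was measured by the probe A_33_P3489646 on chromosome 11 at 47376464 to 47376523 (build hg19). Its log2 intensity was 13.00 with siRNA-A, 13.13 with siRNA-B, 13.09 with control siRNA-1 and 13.10 with control siRNA-2. The siRNA-A array was the lowest and the siRNA-B array the highest, with both controls between them. The fitted log2 fold change of PU.1 mRNA was -0.033 with a 95% interval of -0.29 to 0.22 (adjusted p = 0.973 in limma). That interval bounds the change without showing that there was none, and the direction turned with normalization, to 0.0080 after quantile normalization.

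CEBPA, on chromosome 19 at 33791353 to 33791412, had log2 intensities of 15.44 with siRNA-A, 15.44 with siRNA-B, 15.43 with control siRNA-1 and 15.51 with control siRNA-2. Both knockdown arrays lay between the controls. Its log2 fold change was -0.028 (95% interval -0.28 to 0.22, adjusted p = 0.977 in limma), and it was 0.060 after quantile normalization.

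CEBPB, which encodes C/EBPbeta, was printed on 10 identical spots of the probe A_23_P411296, on chromosome 20 at 48808989 to 48809048. The mean log2 intensity over the spots was 12.67 with siRNA-A and 12.63 with siRNA-B, against 12.29 with control siRNA-1 and 12.35 with control siRNA-2. The knockdown arrays differed from each other by 0.048 and the controls by 0.063, and each of the 4 differences between a knockdown and a control array was between 0.27 and 0.38. The fitted log2 fold change was 0.33 (standard error 0.11, 95% interval 0.072 to 0.58), which is 1.25-fold. The adjusted p was 0.515 in limma, and no call was made.

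The identical spots allow a closer look at the measurement itself. The log2 fold change of single spots ranged from 0.092 to 0.53 with a median of 0.34, and in 9 of 10 spots both knockdown arrays lay above both control arrays. The exception had 12.17 with siRNA-B against 12.25 and 12.31 with the control siRNAs, and 12.57 with siRNA-A. Within an array the SD over spots was 0.133 with siRNA-A, 0.262 with siRNA-B, 0.167 with control siRNA-1 and 0.153 with control siRNA-2. On 3 of the 10 spots a control array had a reduced weight of 0.5. By the criteria of the study, a limma p under 0.005 for a spot and a p under 0.05 for its identical spots, 2 of the 10 CEBPB spots passed, with fold changes of 0.53 and 0.41 on the log2 scale, and of the 17 spots of all 8 factors these 2 alone did. Over all analysed spots, 0.750% passed both criteria as higher. Spots of 1 array share its RNA, so that they show the precision of the measurement and not the spread between cultures.

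**Figure D2:**
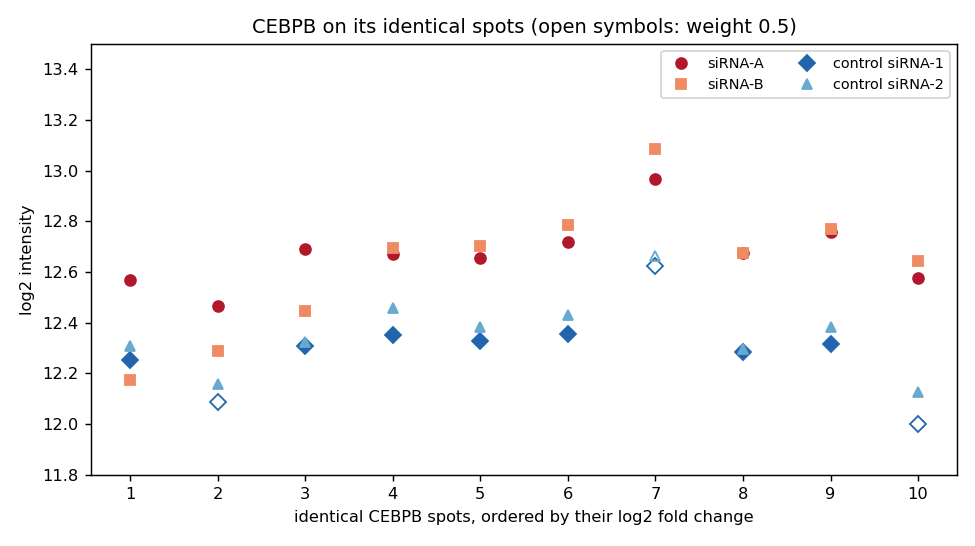
Log2 intensity of the 10 identical CEBPB spots on each of the 4 arrays, ordered by the fold change of the spot. Open symbols have a weight of 0.5. In 9 of 10 spots both knockdown arrays lie above both control arrays, and the spot with the smallest fold change is the exception.

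CEBPD, on chromosome 8 at 48649873 to 48649932, had log2 intensities of 13.01 with siRNA-A, 13.18 with siRNA-B, 12.88 with control siRNA-1 and 12.92 with control siRNA-2. Both knockdown arrays were above the controls, siRNA-B by more than siRNA-A. The log2 fold change was 0.20 (standard error 0.12, 95% interval -0.065 to 0.46, adjusted p = 0.742 in limma). CEBPE, on chromosome 14 at 23586547 to 23586606, had 12.26 with siRNA-A and 12.54 with siRNA-B, and 12.30 and 12.51 with the control siRNAs. The groups overlapped fully, and the log2 fold change was -0.0026 with a 95% interval of -0.31 to 0.31. Its sign turned after quantile normalization, to 0.035.

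Among the interferon regulatory factors, IRF5 stood apart between the groups as deposited and IRF8 did not. IRF5, on chromosome 7 at 128589323 to 128589382, had log2 intensities of 14.15 with siRNA-A, 14.38 with siRNA-B, 14.00 with control siRNA-1 and 13.89 with control siRNA-2. Both knockdown arrays were above both controls, siRNA-B by more. The log2 fold change was 0.32 (standard error 0.12, 95% interval 0.037 to 0.60), or 1.25-fold, with an adjusted p of 0.578 in limma. After background correction by normexp and quantile normalization it was called, with 0.40, and it was the only factor probe called under any of the 12 alternatives. IRF8, on chromosome 16 at 85956052 to 85956111, had 14.48 with siRNA-A, 14.75 with siRNA-B, 14.53 with control siRNA-1 and 14.58 with control siRNA-2. The siRNA-A array was the lowest and the siRNA-B array the highest. Its log2 fold change was 0.056 (95% interval -0.23 to 0.34, adjusted p = 0.951 in limma), and -0.079 when the siRNA-B array was left out and 0.19 when the siRNA-A array was. After quantile, cyclic loess or normexp and quantile normalization it was 0.13, and with the scaled background-subtracted signal 0.17, in each case with both knockdown arrays above both controls.

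IRF4, on chromosome 6 at 411002 to 411061, was not well above background on any of the 4 arrays. The intensity of its probe A_23_P214360 was 28 with siRNA-A, 30 with siRNA-B, 27 with control siRNA-1 and 29 with control siRNA-2, next to a local background of 25, 24, 21 and 21. No fold change is given for it.

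KLF4, on chromosome 9 at 110248049 to 110248108, had log2 intensities of 7.99 with siRNA-A, 8.09 with siRNA-B, 7.76 with control siRNA-1 and 7.34 with control siRNA-2. It was well above background on all 4 arrays and higher in both knockdown arrays. The controls differed from each other by 0.42, close to the difference between the groups. The log2 fold change was 0.48 (standard error 0.15, 95% interval 0.14 to 0.82), or 1.40-fold, with an adjusted p of 0.464 in limma. It was 0.27 without control siRNA-2 and 0.69 without control siRNA-1.

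**Figure D3:**
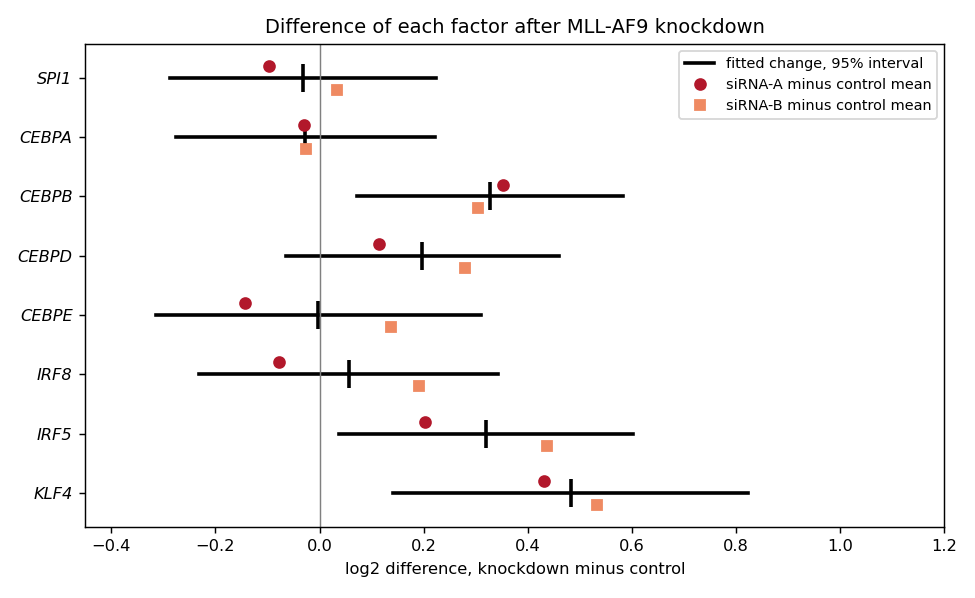
Log2 difference between knockdown and control for each factor. Vertical ticks and lines are the fitted change and its 95% interval in limma, circles and squares are the siRNA-A and the siRNA-B array minus the mean of both controls. The intervals of CEBPB, IRF5 and KLF4 lie above 0, and in SPI1, CEBPE and IRF8 the siRNAs lie on opposite sides of 0.

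The siRNAs share their controls and have 1 array each, so that their differences from the control mean are given side by side without a test. For CEBPB they were 0.35 with siRNA-A and 0.30 with siRNA-B, for KLF4 0.43 and 0.53, for IRF5 0.20 and 0.44, and for CEBPD 0.11 and 0.28. For CEBPA they were -0.030 and -0.025. In SPI1 (-0.098 and 0.032), CEBPE (-0.14 and 0.14) and IRF8 (-0.079 and 0.19) the siRNA-A array lay below and the siRNA-B array above both control arrays. Opposite sides of both controls were taken by 3 of 8 factor probes and by 18.0% of all probes.

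The arrays themselves differed in brightness. The median log2 intensity over probes was 8.17 with siRNA-A, 8.22 with siRNA-B, 8.20 with control siRNA-1 and 8.26 with control siRNA-2, and in the same order 71.2%, 70.0%, 74.3% and 74.3% of spots were well above background. Among the 25% of probes with the highest mean intensity, the median of siRNA-A minus siRNA-B was -0.109. Quantile normalization sets such differences near 0 by its construction. After it the siRNA-A and siRNA-B arrays lay on opposite sides of both controls in 0 of 8 factor probes, with IRF8 at 0.039 with siRNA-A and 0.21 with siRNA-B relative to the control mean. CEBPB was then at 0.45 and 0.29, IRF5 at 0.35 and 0.45, and KLF4 at 0.49 and 0.53. The share of all probes on opposite sides after quantile normalization was not counted, so the 0 of 8 has no background beside it.

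**Figure D4:**
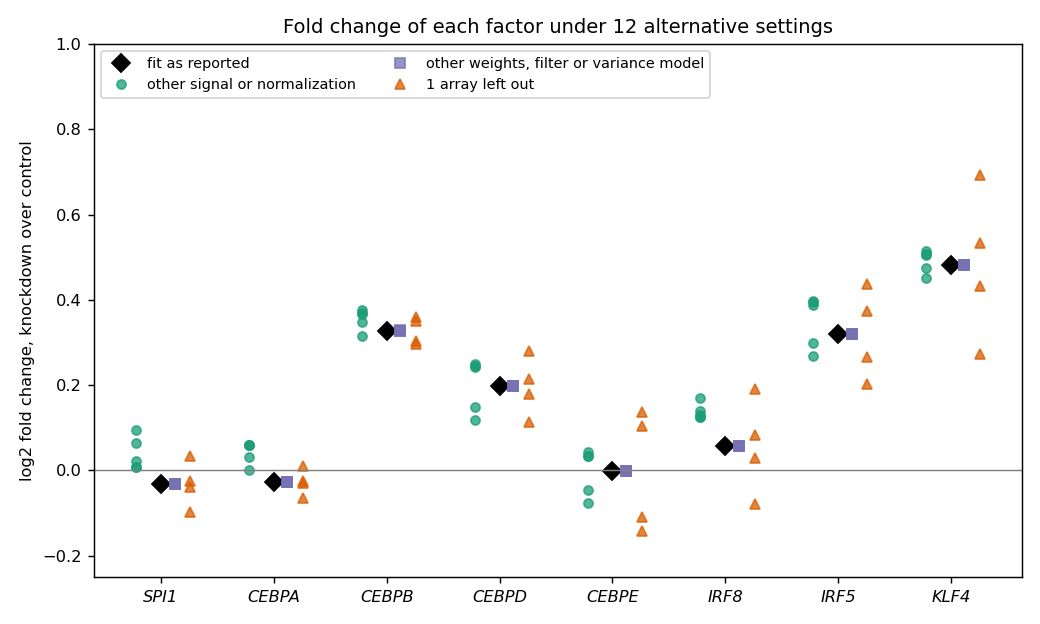
Log2 fold change of each factor in the fit as reported (diamonds) and under 12 alternatives, grouped as other signals or normalizations, other fits, and fits with 1 array left out. CEBPB, CEBPD, IRF5 and KLF4 lie above 0 under all 12, with CEBPB between 0.30 and 0.38, while SPI1, CEBPA, CEBPE and IRF8 lie on both sides of 0.

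The direction of CEBPB, CEBPD, IRF5 and KLF4 was kept under each of the 12 alternatives. CEBPB ranged from 0.30 to 0.38 and had p under 0.05 in 10 of them, IRF5 from 0.20 to 0.44 with 7, KLF4 from 0.27 to 0.69 with 7, and CEBPD from 0.11 to 0.28 with 4. SPI1 kept its sign in 6 of 12, CEBPA in 6, CEBPE in 7 and IRF8 in 11.

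Sequences upstream of 3 of the factors with groups apart are shown, as far as entries exist. RefSeq promoter entries (build GRCh38.p14) matched 7 of the 9 genes, with SPI1 and CEBPD missing. The 250 bases before the start furthest upstream are printed on the strand of the gene. CEBPB is at chr20:50190333-50190582 on the + strand, IRF5 at chr7:128937677-128937926 on the + strand and KLF4 at chr9:107489770-107490019 on the - strand. Capitals mark matches, on either strand, to TTNCNNAA (C/EBP), GGAAGT (ETS), CACCC (Krueppel-like factors), or GAAA and GAAA with NN between them (interferon regulatory factors), where N is any base.
CEBPB: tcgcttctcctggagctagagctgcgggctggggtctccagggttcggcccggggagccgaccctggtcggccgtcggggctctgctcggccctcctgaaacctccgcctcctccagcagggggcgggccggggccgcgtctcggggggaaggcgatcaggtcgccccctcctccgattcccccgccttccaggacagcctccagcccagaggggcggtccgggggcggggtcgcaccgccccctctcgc
IRF5: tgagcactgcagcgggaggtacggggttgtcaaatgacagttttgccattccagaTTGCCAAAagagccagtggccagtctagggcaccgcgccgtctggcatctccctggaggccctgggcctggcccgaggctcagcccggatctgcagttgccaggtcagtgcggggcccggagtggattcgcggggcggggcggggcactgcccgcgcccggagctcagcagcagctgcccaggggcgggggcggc
KLF4: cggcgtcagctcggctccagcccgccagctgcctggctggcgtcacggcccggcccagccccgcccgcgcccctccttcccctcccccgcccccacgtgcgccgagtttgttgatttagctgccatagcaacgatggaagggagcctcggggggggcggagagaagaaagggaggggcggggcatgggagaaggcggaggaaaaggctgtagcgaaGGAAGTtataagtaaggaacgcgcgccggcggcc

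IRF5 held a C/EBP match that begins 195 bases before the start, KLF4 held an ETS match 34 bases before it, and the CEBPB window held 0 matches. CEBPB has 2 starts in RefSeq and IRF5 has 4. The windows not printed held the Krueppel-like pattern, 2 times before the other CEBPB start and 1, 6 and 1 times before the other IRF5 starts. Of all 35116 promoter windows of this length, 33.2% held the C/EBP pattern, 19.5% the ETS pattern, 3.02% the interferon regulatory factor pattern and 54.7% the Krueppel-like pattern. A match describes the letters in this window and is not a binding site.

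The listed relatives of these factors were called in no case. Of 3 genes listed beside the C/EBP factors 0 were called and the median log2 fold change was -0.10, with CEBPG at -0.10. That list holds CEBPZ (-0.10) for its symbol, although its protein lacks the C/EBP leucine zipper and is no relative. Of the other interferon regulatory factors 0 of 5 were called (median 0.040), with IRF7 at -0.068 (0.012 after quantile normalization) and IRF9, a partner of STAT proteins, at -0.11. Of the other ETS factors 0 of 12 were called (median -0.017), with ELF4 at -0.084 and FLI1 at -0.024 (0.022 after quantile normalization), and of the other Krueppel-like factors 0 of 13 (median 0.090), with KLF13 at 0.20 and KLF16 at 0.091. Over all 20654 gene names, on the brightest probe of each, 0.596% were called higher and 0.755% lower, with a median of -0.019. Changes in the relatives were not all small, from -0.37 to 0.30 in the ETS factors and from -0.29 to 0.20 in the Krueppel-like factors. Both knockdown arrays lay above both controls in 2 of 12 ETS factors and below both in 3. For the Krueppel-like factors it was 3 and 2 of 13, for the C/EBP list 0 and 2 of 3. For the interferon regulatory factors it was 1 and 1 of 5, and over all probes 15.2% and 21.4%.

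Among 18 partners and antagonists of the factors, 1 was called higher and 1 lower, with a median of -0.062. FOS, a leucine zipper protein of the AP-1 complex, had log2 intensities of 11.35 (siRNA-A), 11.83 (siRNA-B), 10.85 and 10.57 (controls), and rose by 0.88 (adjusted p = 0.182 in limma, standard error 0.17). CALR, a calcium-binding chaperone reported to hold back C/EBP translation, had 16.78 and 16.80 against 17.30 and 17.31 and had a log2 fold change of -0.51 (adjusted p = 0.226 in limma, standard error 0.11). With the background-subtracted signal scaled to the 75th percentile the change of CALR was -0.31 and not called, and that of FOS was 0.88 and not called. With 1 array left out FOS lost its call when siRNA-B (0.64) or either control (1.01 without the first, 0.74 without the second) was omitted, and CALR with the omission of any array (-0.53 to -0.50).

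Lists of target genes were read next. Of 13 measured PU.1 target genes 2 were called higher and 0 lower, with a median of 0.14. MSR1, a macrophage scavenger receptor, went up by 0.66 (adjusted p = 0.230 in limma, standard error 0.14), from 5.46 and 5.29 in the controls to 6.21 with siRNA-A and 5.86 with siRNA-B. MSR1 was called in 6 of 12 alternatives. It was at 1.55 and 1.52 with the background-subtracted signal scaled and unscaled, and not called after quantile (0.65), cyclic loess (0.64) or normexp and quantile (0.38) normalization. Its call was also lost without siRNA-A (0.49), control siRNA-1 (0.75) or control siRNA-2 (0.57).

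Of 15 measured C/EBP target genes 3 were called higher and 1 lower, with a median of 0.11. The chemokine gene CCL2 had 7.76 with siRNA-A and 7.12 with siRNA-B against 6.05 and 5.82 in the controls, a rise of 1.50 (standard error 0.20, adjusted p = 0.0405 in limma). CD14, the lipopolysaccharide co-receptor of monocytes, rose by 1.05 (adjusted p = 0.0355), with 8.39 and 8.71 against 7.52 and 7.47. IL8, which encodes a neutrophil chemoattractant, rose by 0.65 (adjusted p = 0.149), with 8.07 and 8.08 against 7.34 and 7.52. ELANE, which encodes neutrophil elastase, was lower, at -0.47 (adjusted p = 0.277 in limma), with 16.41 and 16.33 against 16.81 and 16.87. ELANE was called in 4 of 12 alternatives and not after quantile (-0.38) or cyclic loess (-0.36) normalization, with the background-subtracted signal scaled (-0.38) or unscaled (-0.41), or with any array left out (-0.51 to -0.43). IL8 was called in 8 of 12, and not without siRNA-A (0.65), siRNA-B (0.64) or control siRNA-1 (0.55), nor with the unscaled background-subtracted signal (0.69). CCL2 was called in 9 of 12, and not without control siRNA-1 (1.61) or control siRNA-2 (1.39), nor with the scaled background-subtracted signal (2.20). CD14 was called in 11 of 12, and not without control siRNA-2 (1.03).

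Of 13 targets of IRF8 and IRF5, 2 were called higher and 0 lower, with a median of 0.0093. CIITA, the master regulator of MHC class II genes, was up by 0.83 (adjusted p = 0.0753 in limma, standard error 0.12). This was probe A_32_P209960, with 8.47 and 8.29 against 7.64 and 7.46. Another CIITA probe, A_33_P3324394, had a difference of 0.16. The call of A_32_P209960 was lost without siRNA-A (0.74) and without control siRNA-2 (0.73). Of 19 interferon-stimulated genes 0 were called, the median was 0.0073, and both knockdown arrays lay above both controls in 0 of them and below both in 1, MX1, with ISG15 at 0.012, which turned to -0.071 with the scaled background-subtracted signal, and MX1 at -0.19 (15.25 and 15.29 against 15.57 and 15.36). Over all probes both knockdown arrays lay above both controls in 15.2% and below both in 21.4%. Called genes over these lists and the cell type marker lists together numbered 9 of 138, beside 0.596% called higher and 0.755% lower over all gene names. The lists were chosen with earlier results of these data known, and the excess was not tested.

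**Figure D5:**
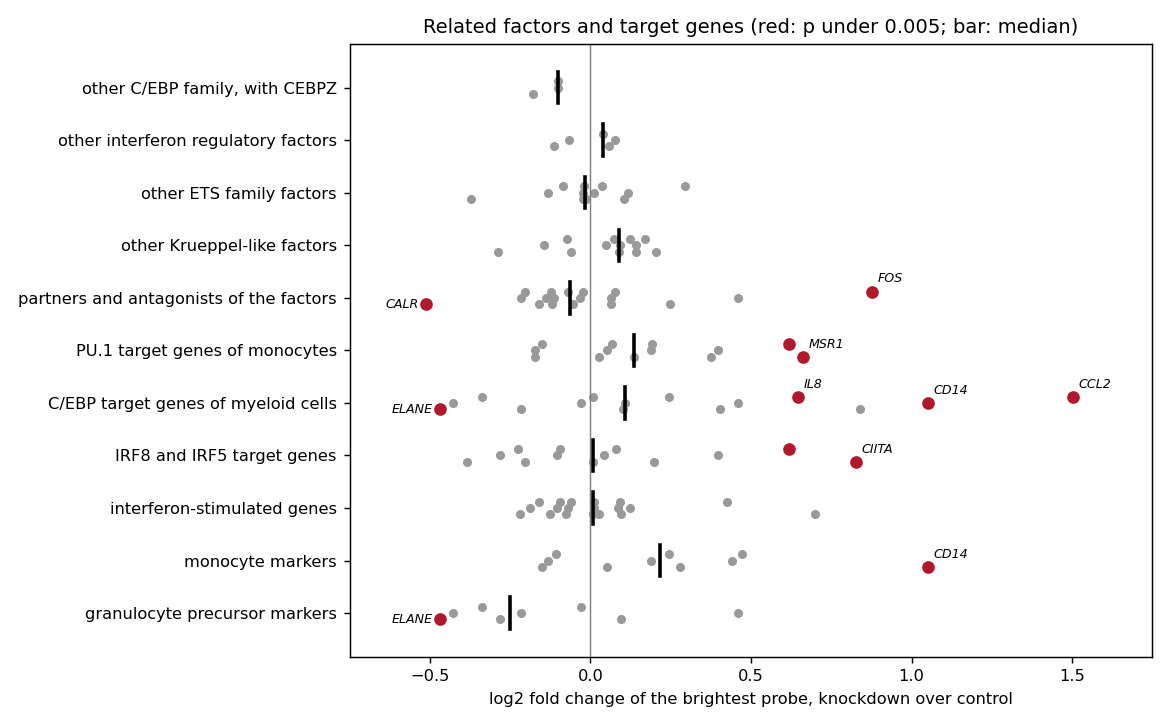
Log2 fold change of the brightest probe of each measured gene in the lists of related factors, partners, target genes and markers, 1 point per gene. Red points are called at p under 0.005 in limma and bars are list medians. Called genes lie among partners, target genes and markers, and 0 lie among the relatives of the factors.

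Cell type markers were read beside these values. Of 10 measured monocyte markers 1, CD14, was called higher and 0 lower, with a median of 0.22. Both knockdown arrays were above both controls in 6 of the 10 and below both in 2, CD68 (-0.15) and CD4 (-0.13), and the summed intensity was 35893 with siRNA-A, 40232 with siRNA-B, 35680 with control siRNA-1 and 34607 with control siRNA-2. The brightest probe of these markers was that of CD33 (-0.11) in the controls and that of MNDA (0.44) in the knockdown arrays, which does not order their abundance since probes differ in affinity. CD163 was not well above background. Of 8 markers of granulocyte precursors 1, ELANE, was called lower and 0 higher, with a median of -0.25. Knockdown arrays were below both controls in 4 of the 8 and above both in 2, CAMP (0.46) and MS4A3 (0.095). The summed intensities were 534490 and 492846 against 630377 and 693393, with the CTSG probe the brightest and LTF not well above background. Over all probes both knockdown arrays lay above both controls in 15.2% and below both in 21.4%. The paper counts ELANE and CTSG as markers of immature monocytic cells, so the name of the granulocyte precursor list does not settle the cell type. In these bulk samples fewer cells of a type and less RNA per cell cannot be told apart, and the part of these markers in the values of the factors was not tested.

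Markers of other lineages and housekeeping genes were called in no case. This held for 5 measured B cell markers (median -0.037 but -0.25 and -0.28 with the scaled and unscaled background-subtracted signal, CD79A -0.023 but 0.067 with the scaled signal), with EBF1 and BLK not well above background, and for 6 T cell markers (median 0.049, CD3D -0.063, CD2 0.039 but -0.028 with the unscaled background-subtracted signal), with TRAT1 not well above background. It also held for 7 erythroid markers (median 0.085, EPOR 0.085), with GATA1 not well above background, for 6 megakaryocyte markers (median 0.18 but 0.35 with the scaled and 0.32 with the unscaled signal after background subtraction, GP9 -0.22, ITGA2B 0.13), and for 8 housekeeping genes (median -0.074, ACTB -0.22). Under the alternatives that use all arrays the list median took both signs for the other interferon regulatory factors (-0.042 to 0.089), the other ETS factors (-0.022 to 0.026), the IRF8 and IRF5 targets (-0.149 to 0.043), the interferon-stimulated genes (-0.059 to 0.057), the T cell markers (-0.062 to 0.077) and the housekeeping genes (-0.074 to 0.016).

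List medians also moved when an array was left out. Without siRNA-A and without siRNA-B they were 0.018 and -0.23 for the partners, 0.14 and -0.17 for the interferon-stimulated genes, and 0.30 and 0.0061 for the PU.1 targets. In the same order they were 0.20 and 0.051 for the C/EBP targets, 0.082 and -0.085 for the IRF8 and IRF5 targets, and 0.038 and -0.10 for the B cell markers. Among the relatives they were -0.051 and -0.21 for the C/EBP list, 0.041 and -0.071 for the ETS factors, and 0.11 and -0.014 for the Krueppel-like factors. The other interferon regulatory factors had 0.073 without control siRNA-1 and -0.082 without control siRNA-2, and the interferon-stimulated genes 0.13 and -0.14. The ranges over all 4 omissions were 0.15 to 0.24 for the monocyte markers, -0.23 to -0.18 for the granulocyte precursor markers, 0.016 to 0.095 for the T cell markers, 0.060 to 0.18 for the erythroid markers, 0.027 to 0.19 for the megakaryocyte markers and -0.12 to -0.044 for the housekeeping genes. Of single genes named from the lists, KLF13 was at 0.36 when siRNA-A was omitted and 0.053 when siRNA-B was, and ACTB at -0.42 and -0.022. ELF4 was at -0.042 and -0.13, CEBPZ at -0.051 and -0.15. Over the 4 omissions KLF16 ranged from 0.044 to 0.14, GP9 from -0.39 to -0.045, MX1 from -0.29 to -0.082 and IRF9 from -0.14 to -0.081. CEBPG, IRF7, FLI1, ISG15, CD79A, CD3D, CD2 and EPOR took both signs.

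The genes whose profile over the 4 arrays was nearest to that of a factor were found among 20697 probes with a gene name that were well above background on all 4 arrays, by the Euclidean distance of log2 values after subtraction of each probe's mean. Nearest to CEBPB were LOXL3 (distance 0.023), ABCA3 (0.029) and GABBR2 (0.030). Nearest to CEBPD were SMAP2 (0.0076), KIAA1949 (0.0084) and ANKRD10 (0.011). IRF5 was nearest to NRIP1 (0.015), TLE6 (0.027) and CRMP1 (0.029), and KLF4 to RBM47 (0.061), BCL6 (0.069) and ACTRT2 (0.075). None of these 12 genes was called. They were picked for profiles close to those of uncalled factors, so that this was largely fixed by the choice. ACTRT2 was called under 1 of 12 alternatives, the removal of dim probes. Shared function was not tested.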

How the data were processed

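Total RNA of THP1 cells, pooled from 5 experiments per array, was hybridised to 4 single-colour Agilent arrays. The authors extracted spots with Agilent Feature Extraction 10.5.1.1 and deposited, for every spot, an intensity without background correction or normalization and a quality weight. In 100% of spots that intensity was the scanner's median signal. The sources do not say how weights were assigned.

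The arrays hold 44495 spots, 1377 of them controls, and 33323 other spots on 26219 probes with a weight above 0 on all 4 arrays were analysed. Identical spots were averaged on the log2 scale, and limma 3.58.1 in R 4.3.3 was fitted to all probes with the mean deposited weights and without covariates. Tests are two-sided. The code was tested on simulated data. No block for the slide was possible, because all arrays share 1 slide. A lone array in a fit without its partner is assumed to vary like the others.

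Genes named are all probes of the 9 factors and of MLL, MLLT3 and HOXA9, the called genes of each list or else its 2 brightest, and the 3 nearest profiles of factors with groups apart. The second CIITA probe and the markers CD68, CD4, MNDA, CAMP and MS4A3 were added after their values were seen. The factors and lists were chosen with earlier results of these data known. Gene names are those of the array, where MLL is KMT2A and IL8 is CXCL8. In lists the brightest of several probes stands for its gene. Some list genes are counted but not reported here by name.

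Alternatives were the background-subtracted signal with scaling to the 75th percentile or unscaled, quantile or cyclic loess normalization, normexp background correction (offset 50) before quantile normalization, a fit without weights, dim probes removed, a trend in eBayes, the omission of each array, other thresholds, and the mean of a gene's probes. For the comparison of the siRNAs, the label check, the nearest profiles and the median of all probes they were chosen after seeing the data.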

Additional observations from a re-analysis of the deposited data

Results flagged for a closer look

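In 3 factors the knockdown arrays lay on opposite sides of both control arrays, with siRNA-A lower and siRNA-B higher. The difference of siRNA-A minus siRNA-B on the log2 scale was -0.13 for SPI1, -0.28 for CEBPE and -0.27 for IRF8. In the same order control siRNA-1 minus control siRNA-2 was -0.013, -0.21 and -0.052. Over all probes the absolute difference between siRNA-A and siRNA-B had a median of 0.139 and a 90th percentile of 0.355, so that such differences were common. Each siRNA has 1 array, and the difference between the siRNAs was not tested. After quantile normalization siRNA-A minus siRNA-B was -0.0081 for SPI1, -0.18 for CEBPE and -0.17 for IRF8. The difference between the controls was then 0.058, -0.12 and 0.018 (control siRNA-1 minus control siRNA-2).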

How the results depend on the processing

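CEBPB, CEBPD, IRF5 and KLF4 kept their direction under all 12 alternatives, and 0 of the 8 factor probes was called in limma under 11 of them, with 3 at an unadjusted p under 0.05 as reported and 0 (without control siRNA-2) to 4 under the alternatives. With normexp and quantile normalization 1, IRF5, was called. All probes called numbered 345 as reported, 226 with the background-subtracted signal scaled to the 75th percentile, 31 at an adjusted p under 0.05 and 78 (without control siRNA-2) to 242 (without siRNA-B) with 1 array left out. The siRNAs lay on opposite sides of both controls in 3 factors as reported, and in 0 after quantile, 0 after cyclic loess and 0 after normexp with quantile normalization, and in the same 3 with dim probes removed. With the background-subtracted signal 2 did so after scaling, CEBPE and, with siRNA-A the higher, CEBPA, and 2 without scaling, SPI1 and CEBPE. For opposite sides, and for the groups apart given next, shares over all probes were counted on the deposited values only. Groups were apart in 4 factors as reported, in 4 to 6 under other settings with all arrays, and in 5 to 7 with 1 array left out, when fewer arrays have to be separate. These were 7 higher and 0 lower when siRNA-A was omitted, 4 and 3 when siRNA-B was, 4 and 1 without control siRNA-1, and 5 and 0 without control siRNA-2. Called probes of MLL, MLLT3 and HOXA9 numbered 3 as reported, 1 with the background-subtracted signal after scaling, 1 without scaling, 4 after quantile, cyclic loess or normexp normalization or without dim probes, and 1 to 2 with 1 array left out. Called genes of the lists numbered 9 as reported, 5 and 5 with the same signals, 11 after normexp, 12 without dim probes, 10 with a trend in eBayes, and 2 to 5 with 1 array left out. Directions that turned are given as log2 fold changes. With the background-subtracted signal scaled to the 75th percentile they were SPI1 0.095, CEBPA 0.031, MLL A_33_P3390576 -0.031, FLI1 0.011, ISG15 -0.071, CD79A 0.067. With that signal unscaled they were SPI1 0.065, CEBPA 0.00076, MLL A_33_P3390576 -0.062, ISG15 -0.10, CD79A 0.036, CD2 -0.028. After quantile normalization they were SPI1 0.0080, CEBPA 0.060, CEBPE 0.035, IRF7 0.012, FLI1 0.022. After cyclic loess normalization they were SPI1 0.021, CEBPA 0.060, CEBPE 0.042, FLI1 0.015, CD79A 0.0079. After normexp and quantile normalization they were SPI1 0.0080, CEBPA 0.060, CEBPE 0.034, IRF7 0.011, FLI1 0.022. With 1 array left out the ranges of those that turned were SPI1 -0.098 to 0.032, CEBPA -0.066 to 0.011, CEBPE -0.14 to 0.14, IRF8 -0.079 to 0.19, MLL A_33_P3307307 -0.068 to 0.014, MLL A_33_P3390576 -0.00067 to 0.097, MLL A_24_P136402 -0.22 to 0.047, CEBPG -0.21 to 0.0039, IRF7 -0.21 to 0.076, FLI1 -0.095 to 0.047, ISG15 -0.17 to 0.19, CD79A -0.084 to 0.038, CD3D -0.25 to 0.13, CD2 -0.00022 to 0.078, EPOR -0.13 to 0.30. The cause was not tested. Probes left out of the analysis, such as that of IRF4, were well above background on no array and gave no value. Probes well above background on only some arrays were kept and counted in their lists. An example is CEACAM8 at -0.28, which was above background in 0 knockdown arrays and 1 control array.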
